A study of Mus musculus with 8 samples.

Results

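The genes described here are 10 mouse genes that encode vascular endothelial growth factor (VEGF) ligands and receptors and a semaphorin receptor. They are the receptor kinases Kdr, Flt1 and Flt4, the co-receptors Nrp1 and Nrp2, the plexin Plxnd1, and the ligands Vegfa, Vegfb, Vegfc and Pgf. They were taken by name from a table of raw counts with 24421 gene rows, of which 13540 had enough counts to be tested. The 10 genes were all among the tested ones. Their transcripts were measured by RNA sequencing in 4 Flvcr2 knockout and 4 Flvcr2 heterozygous libraries of sorted brain endothelial cells. Both groups were C57Bl6 embryos at E14.5, an embryonic stage given in days, and both carried the Flvcr2 mutation, on both alleles in knockouts and on 1 allele in heterozygotes. GFP is expressed from the mutated gene. Sorting took cells with both GFP and the endothelial surface protein CD31, so endothelial cells without GFP were not collected, and no embryo without the mutation was included. Each library was made from 2000 to 5000 cells with the SMART-Seq v4 and Nextera XT kits.

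Vegfa, made by neural progenitors, guides vessels into the embryonic brain through the kinase Kdr on endothelial cells. Flt1 binds Vegfa, Vegfb and placental growth factor (the product of Pgf) tightly but signals weakly, and its soluble form acts as a decoy. Flt4 is the receptor of Vegfc. Neuropilins (Nrp1, Nrp2) present VEGF ligands to the kinases and, with plexins such as Plxnd1, also receive semaphorins, which guide growing vessels and axons.

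In knockout cells, transcripts of the semaphorin receptor Plxnd1 and of the VEGF and semaphorin co-receptor Nrp1 rose, by 2.18-fold and 1.73-fold. Among the ligands, Pgf rose 3.31-fold and Vegfb fell 2.22-fold. Kdr, the main signalling receptor, was at nearly equal mean levels, and Vegfa had the lowest mean level per kilobase of the 10 genes in both groups. Of the 10 genes, 3 rose, 1 fell and 6 did not pass the test (edgeR quasi-likelihood test, Benjamini-Hochberg adjustment over all tested genes, threshold 0.05). Among all 13540 tested genes 5.53% were higher and 4.02% lower in knockout cells by the same rule, together 9.55%. The median log2 fold change of the 10 genes was 0.38, against -0.03 over all tested genes. When each library was left out in turn, the Plxnd1 call was kept in all 8 fits, the Nrp1 call in 4, the Pgf call in 2 and the Vegfb call in 1. With a score of neuron and radial glia markers in the fit, 0 of the 10 were called. The same held with a score that added markers of further cell types. Whether each library is a separate embryo is not stated in the labels. The p-values therefore rest on the spread between libraries, which may be technical in part. In these bulk libraries, fewer cells of a type and less RNA per cell cannot be told apart.

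The libraries held 12076498 to 35861108 counts in knockouts and 9107329 to 22615252 counts in heterozygotes. Flvcr2, listed under its older symbol Mfsd7c, had 227 to 393 CPM in knockout and 276 to 578 CPM in heterozygous libraries (edgeR adjusted p = 0.209). Reads of a mutant transcript, if present, would fall in the same row, and whether they did was not tested. The genotype labels are therefore not checked by this row. CPM is the count of a gene per 1000000 counts of its library, here with library sizes scaled by the trimmed mean of M values (TMM). Of 17 endothelial marker genes, summed to 12069 to 14936 CPM in knockout and 8594 to 13878 CPM in heterozygous libraries, 2 rose, 2 fell and 13 did not pass. Markers of other cells were lower in knockout libraries in several lists. The 16 neuron markers summed to 104 to 329 CPM in knockout and 324 to 1971 CPM in heterozygous libraries (7 fell, 0 rose). The 7 erythroid markers summed to 19.9 to 52.0 CPM in knockout and 238 to 611 CPM in heterozygous libraries (of the 5 tested, 2 fell and 0 rose). Radial glia (3 of 12 fell), pericyte (2 of 11 tested fell) and microglia (1 of 12 fell) markers had no gene that rose. Among all tested genes 4.02% fell. The sums of these lists overlapped between the groups. Radial glia markers summed to 1420 to 1698 CPM in knockout and 1475 to 1513 CPM in heterozygous libraries. Pericyte markers summed to 41.0 to 592 CPM in knockout, highest in knockout 3, and 374 to 519 CPM in heterozygous libraries. Microglia markers summed to 149 to 935 CPM in knockout and 558 to 1614 CPM in heterozygous libraries. No fibroblast, lymphatic or choroid plexus marker passed the test, but single libraries stood out. Choroid plexus markers summed to 11.1 to 1156 CPM in knockout libraries, against 362, 12.2, 165 and 9095 CPM in heterozygous libraries 1 to 4. Fibroblast markers summed to 137, 173, 759 and 113 CPM in knockout libraries 1 to 4, against 287 to 468 CPM in heterozygous libraries. Knockout 1 and heterozygous 2 had 914 and 331 counts of the Y-linked gene Ddx3y with 1 and 0 counts of Xist, while the other 6 libraries had 229 to 1135 counts of Xist. Of these 6, knockout 4 had 6, heterozygous 3 had 28 and heterozygous 4 had 56 counts of Ddx3y, and the rest had 0.

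To show the sequence in front of the genes that passed the test, and of Kdr as a receptor that did not, the 250 bases before an annotated transcript start are printed 5′ to 3′ in gene direction, from RefSeq on GRCm38.p6. Capitals mark GCGTG, or its reverse complement CACGC, a core of the sites bound by hypoxia-inducible factors (the other searched core, ACGTG, was not found in these windows). No marked match overlaps another. The windows are chr6:115995006-115995255 (minus strand) for Plxnd1, chr8:128358823-128359072 (plus strand) for Nrp1, chr12:85177314-85177563 (minus strand) for Pgf, chr19:6987652-6987901 (minus strand) for Vegfb and chr5:75978456-75978705 (minus strand) for Kdr.
Plxnd1: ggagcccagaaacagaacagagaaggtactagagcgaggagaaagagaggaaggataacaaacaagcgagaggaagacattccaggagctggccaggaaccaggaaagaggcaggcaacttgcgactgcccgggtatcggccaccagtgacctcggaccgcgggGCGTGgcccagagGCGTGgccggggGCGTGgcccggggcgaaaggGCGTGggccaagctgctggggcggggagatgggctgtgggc
Nrp1: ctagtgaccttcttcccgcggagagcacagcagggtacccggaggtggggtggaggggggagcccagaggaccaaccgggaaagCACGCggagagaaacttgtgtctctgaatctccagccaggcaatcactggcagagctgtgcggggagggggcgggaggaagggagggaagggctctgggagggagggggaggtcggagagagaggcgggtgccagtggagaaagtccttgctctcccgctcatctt
Pgf: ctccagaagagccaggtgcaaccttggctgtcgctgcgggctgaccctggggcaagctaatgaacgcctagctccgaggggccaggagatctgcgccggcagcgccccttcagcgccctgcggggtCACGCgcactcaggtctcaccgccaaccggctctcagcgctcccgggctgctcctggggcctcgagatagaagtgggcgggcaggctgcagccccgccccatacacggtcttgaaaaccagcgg
Vegfb: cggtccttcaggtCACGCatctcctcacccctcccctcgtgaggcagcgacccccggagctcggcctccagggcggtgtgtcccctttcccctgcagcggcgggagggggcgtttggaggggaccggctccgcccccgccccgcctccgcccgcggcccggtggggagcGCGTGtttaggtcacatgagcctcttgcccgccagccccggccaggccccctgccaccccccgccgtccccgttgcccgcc
Kdr: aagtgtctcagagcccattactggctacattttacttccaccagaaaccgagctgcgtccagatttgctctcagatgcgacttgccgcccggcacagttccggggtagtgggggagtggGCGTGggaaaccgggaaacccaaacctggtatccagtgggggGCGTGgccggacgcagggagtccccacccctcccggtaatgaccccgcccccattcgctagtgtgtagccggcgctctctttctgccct

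The Plxnd1 window held 4 copies of GCGTG, at 86, 73, 61 and 41 bases before the start. The Vegfb and Kdr windows held 2 each, and the Nrp1 and Pgf windows 1 each. Among the windows not printed, that of Flt1 held 1, that of Nrp2 held 2, and that of a second Vegfa start held 1 and 1 ACGTG. Those of Flt4, Vegfc, the first Vegfa start and a second annotated start of Pgf held 0. Of 32851 windows of the same length over all genes, 28.2% held GCGTG on either strand and 38.6% held GCGTG or ACGTG. The windows of the 10 genes were richer in G and C than most, at 59.2% to 76.4% against a median of 52.4%. The ETS factor core GGAA was in 93.4% of all windows and in neither of the 2 windows of Pgf, and the motif TGATGNAA was in 3.45% of all windows and in none of these genes' windows. Except for Vegfb, the printed windows lie inside the outer limits of the gene record given with each gene. A match is a description of the letters and does not show a bound site.

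**Figure D1:**
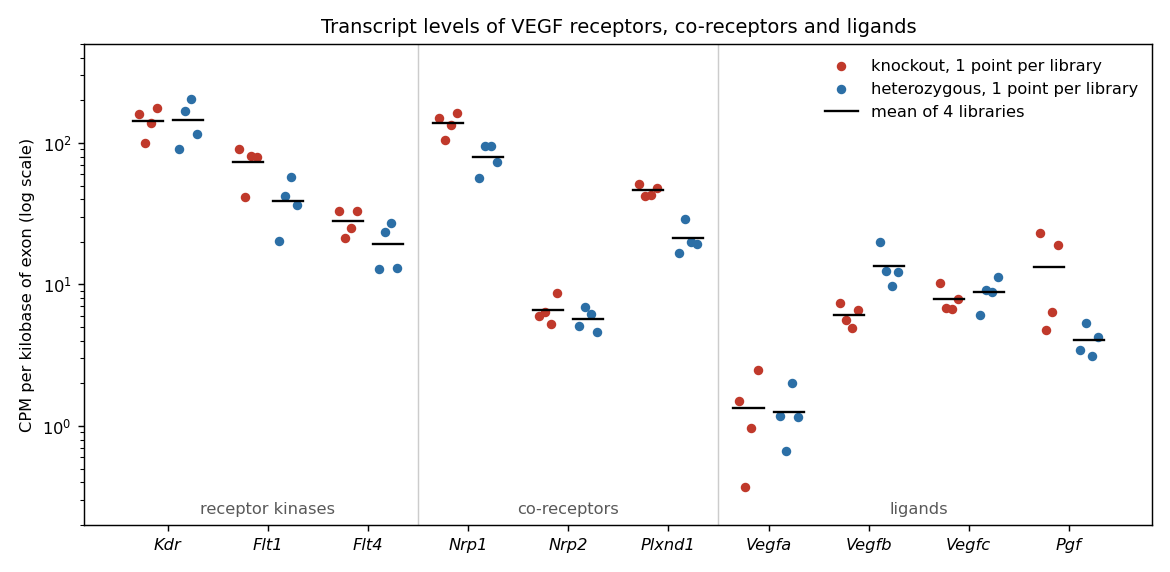
Transcript level of each gene in every library, in CPM per kilobase of exon (y axis, log scale), with knockout libraries left of heterozygous libraries and the mean of 4 as a line. Plxnd1 and Nrp1 lie higher in every knockout library than in any heterozygous library, Vegfb lies lower, and the Kdr points of both groups interleave.

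Of the receptor kinases, Kdr had the highest mean level per kilobase of exon, followed by Flt1 and Flt4. Kdr (Entrez 16542, chromosome 5, 75932827 to 75979072 of GRCm38) encodes the kinase that carries most VEGF signalling in endothelium. It had 954, 590, 813 and 1044 CPM in knockout libraries 1 to 4, against 538, 999, 1204 and 680 CPM in heterozygous libraries 1 to 4. The groups overlapped fully, with the lowest and the highest of the 8 values both in heterozygous libraries. The means were 850 ± 198 CPM in knockout and 855 ± 302 CPM in heterozygous libraries (SD, n = 4 each), and the log2 fold change was -0.01 ± 0.26 (SE, edgeR adjusted p = 0.988). Its 95% interval ran from -0.58 to 0.56, so changes within these limits are not excluded. The sign of this fold change differed between settings.

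Flt1 (Entrez 14254, chromosome 5, 147561604 to 147726438) encodes the high-affinity receptor that binds Vegfa, Vegfb and placental growth factor. Its counts sum the membrane-bound and the soluble forms. It had 991, 458, 890 and 875 CPM in knockout libraries 1 to 4, against 223, 461, 634 and 400 CPM in heterozygous libraries 1 to 4. In knockouts 3 libraries lay above every heterozygous one, while knockout 2 lay just below heterozygous 2. The log2 fold change was 0.90 ± 0.31 (SE, 95% interval 0.22 to 1.59), which did not pass the test over all genes (edgeR adjusted p = 0.0959). It passed in DESeq2 (adjusted p = 0.0179), in edgeR without knockout 2 (adjusted p = 0.0445), and in edgeR without both heterozygous 1 and knockout 2 (adjusted p = 0.0265). With any other single library left out, the edgeR adjusted p ran from 0.0591 to 0.203.

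Flt4 (Entrez 14257, chromosome 11, 49609679 to 49652739) encodes the Vegfc receptor, present on sprouting and lymphatic endothelium. It had 206, 134, 156 and 208 CPM in knockout libraries 1 to 4, against 80.0, 148, 171 and 81.5 CPM in heterozygous libraries 1 to 4. The 2 highest values were knockout 1 and knockout 4 and the 2 lowest were heterozygous 1 and heterozygous 4, with the rest interleaved. A log2 fold change of 0.55 ± 0.27 (SE, 95% interval -0.03 to 1.14) did not pass (edgeR adjusted p = 0.220). Lymphatic markers were scarce, at a summed 3.57 to 9.11 CPM in knockout and 11 to 27.1 CPM in heterozygous libraries, with 1 of the 5 at 0 in every library. Prox1, which defines lymphatic endothelium, had 0 counts in 4 of the 8 libraries.

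Nrp1 (Entrez 18186, chromosome 8, 128358591 to 128505476) encodes the neuropilin that binds the heparin-binding form of Vegfa and class 3 semaphorins. It had 541, 379, 483 and 588 CPM in knockout libraries 1 to 4, against 204, 343, 341 and 265 CPM in heterozygous libraries 1 to 4. Every knockout value was above every heterozygous value, with knockout 2 the nearest to the heterozygous range. The means were 498 ± 90.2 CPM in knockout and 288 ± 67.0 CPM in heterozygous libraries (SD, n = 4 each). Nrp1 rose 1.73-fold, with a log2 fold change of 0.79 ± 0.20 (SE, 95% interval 0.35 to 1.23, edgeR adjusted p = 0.0335). The call was lost without knockout 1 (edgeR adjusted p = 0.0824), knockout 4 (0.0927), heterozygous 1 (0.0691) or heterozygous 4 (0.0731), under total-count scaling (0.0512), and without both knockout 1 and heterozygous 2 (0.109). Its log2 fold change stayed between 0.65 and 0.90 whichever library was left out. Neural cells also transcribe Nrp1. With the mean log2 CPM of neuron and radial glia markers in the fit, its log2 fold change was 0.72 ± 0.29 (SE, edgeR adjusted p = 0.297).

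Nrp2 (Entrez 18187, chromosome 1, 62703317 to 62818692) encodes the neuropilin that works with Flt4 in venous and lymphatic endothelium. It had 61.9, 66.7, 54.2 and 90.1 CPM in knockout libraries 1 to 4, against 53.0, 71.7, 64.3 and 47.6 CPM in heterozygous libraries 1 to 4. Apart from the highest value in knockout 4, the groups shared the same range. Its log2 fold change was 0.21 ± 0.20 (SE, 95% interval -0.23 to 0.64, edgeR adjusted p = 0.555).

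Plxnd1 (Entrez 67784, chromosome 6, 115954811 to 115995339) encodes the endothelial plexin that receives Sema3e and, with neuropilins, other class 3 semaphorins. It had 354, 292, 298 and 334 CPM in knockout libraries 1 to 4, against 116, 201, 137 and 133 CPM in heterozygous libraries 1 to 4. The groups were clearly apart, the lowest knockout library lying above heterozygous 2, the highest of its group. The means were 319 ± 29.6 CPM in knockout and 147 ± 37.4 CPM in heterozygous libraries (SD, n = 4 each). Plxnd1 rose 2.18-fold (95% interval 1.66 to 2.87; log2 fold change 1.12 ± 0.18, SE; edgeR adjusted p = 0.00492). Whichever library was left out, it was called, with log2 fold changes of 1.03 to 1.32. It was also called with each other scaling, filter and tool tried, but not with a marker score in the fit.

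Among the 10 genes, 2 (Nrp1 and Plxnd1) were higher in every knockout library than in any heterozygous one, a pattern shown by 9.70% of all tested genes. The reverse was seen for 1 gene, Vegfb, and for 7.90% of all tested genes.

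Vegfa (Entrez 22339, chromosome 17, 46016993 to 46032377) encodes the main ligand of Kdr, supplied mainly by neural cells in the embryonic brain. It had 103, 15, 60 and 303 counts in knockout libraries 1 to 4, against 44, 22, 165 and 73 counts in heterozygous libraries 1 to 4. In CPM this was 5.26, 1.31, 3.42 and 8.74 in knockout and 4.18, 2.34, 7.04 and 4.05 in heterozygous libraries. Knockout 2 was lowest and knockout 4 highest, and the heterozygous values lay between them. The log2 fold change was 0.09 ± 0.59 (SE, edgeR adjusted p = 0.942), and its 95% interval, -1.22 to 1.40, covers more than a 2-fold change in either direction.

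Vegfb (Entrez 22340, chromosome 19, 6982472 to 6987651) encodes a ligand that binds Flt1 and Nrp1 but not Kdr. It had 9.45, 7.14, 6.32 and 8.40 CPM in knockout libraries 1 to 4, against 25.6, 15.9, 12.4 and 15.7 CPM in heterozygous libraries 1 to 4. Every knockout value was below every heterozygous value, and heterozygous 1 stood highest. The means were 7.83 ± 1.38 CPM in knockout and 17.4 ± 5.71 CPM in heterozygous libraries (SD, n = 4 each), from 82 to 291 counts in knockout and 150 to 291 counts in heterozygous libraries. Vegfb fell 2.22-fold, with a log2 fold change of -1.15 ± 0.30 (SE, 95% interval -1.80 to -0.50, edgeR adjusted p = 0.0361). The call held without heterozygous 3 (edgeR adjusted p = 0.0431). Without both knockout 1 and heterozygous 2 (0.114), or both heterozygous 1 and knockout 2 (0.135), the call was lost. It was lost without knockout 1 (0.0706), knockout 2 (0.0678), knockout 3 (0.0668), knockout 4 (0.0800), heterozygous 1 (0.1005), heterozygous 2 (0.0623) or heterozygous 4 (0.0576), and with library sizes set by endothelial markers (0.0619). Neuron markers summed to 242, 106, 329 and 104 CPM in knockout libraries 1 to 4, against 1971, 324, 849 and 463 CPM in heterozygous libraries 1 to 4. Heterozygous 1 was highest in both Vegfb and neuron markers. Heterozygous 3 and knockout 3 were the lowest of their groups in Vegfb and stood second and first of them in neuron markers. Whether transcripts of other cells have a part in the Vegfb difference was not tested. With the mean log2 CPM of neuron and radial glia markers in the fit, the log2 fold change of Vegfb was -0.89 ± 0.44 (SE, edgeR adjusted p = 0.398).

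Vegfc (Entrez 22341, chromosome 8, 54077532 to 54186454) encodes the Flt4 ligand. It had 25, 16.8, 16.4 and 19.4 CPM in knockout libraries 1 to 4, against 15, 22.4, 21.8 and 27.5 CPM in heterozygous libraries 1 to 4. The lowest and the highest value were both heterozygous. With a log2 fold change of -0.16 ± 0.25 (SE, 95% interval -0.70 to 0.38, edgeR adjusted p = 0.731), Vegfc did not pass. The related Flt4 ligand gene Vegfd, listed as Figf and not among the 10, had 0 to 23 counts in knockout and 0 to 11 counts in heterozygous libraries.

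Pgf (Entrez 18654, chromosome 12, 85166637 to 85177785) encodes placental growth factor, which binds Flt1 and not Kdr. It had 48.4, 9.93, 13.2 and 39.5 CPM in knockout libraries 1 to 4, against 7.12, 11.2, 6.53 and 8.88 CPM in heterozygous libraries 1 to 4. Knockout 1 and knockout 4 stood far above the rest, knockout 3 was above every heterozygous library, and knockout 2 was below heterozygous 2. The means were 27.8 ± 19.1 CPM in knockout and 8.42 ± 2.08 CPM in heterozygous libraries (SD, n = 4 each). Pgf rose 3.31-fold, with a log2 fold change of 1.73 ± 0.48 (SE, 95% interval 0.67 to 2.79, edgeR adjusted p = 0.0477). The call held without knockout 2 (edgeR adjusted p = 0.0183) or knockout 3 (0.0277). It was lost without knockout 1 (0.138), knockout 4 (0.126), heterozygous 1 (0.118), heterozygous 2 (0.0736), heterozygous 3 (0.113) or heterozygous 4 (0.0878). It was also lost with upper quartile (0.0544), total-count (0.0600) or endothelial-marker (0.0696) scaling and in limma voom (0.0838).

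**Figure D2:**
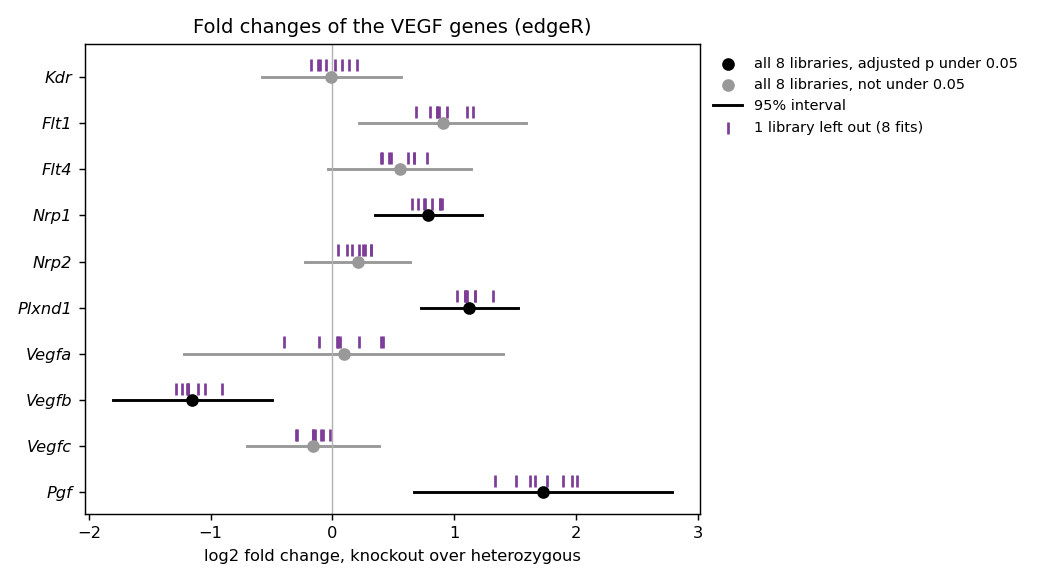
Log2 fold change of each gene, knockout over heterozygous (x axis), with its 95% interval, and purple ticks for the 8 fits without a given library. The ticks of Plxnd1 (1.03 to 1.32), Nrp1 (0.65 to 0.90) and Pgf (1.33 to 2.01) lie right of 0, those of Vegfb (-1.28 to -0.91) left of it, and those of Kdr and Vegfa on both sides.

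Levels of different genes were compared per kilobase of exon, using the exons of the GENCODE M21 basic set. In knockout libraries the mean levels were 143.5 CPM per kilobase for Kdr, 138.4 for Nrp1, 73.3 for Flt1, 46.3 for Plxnd1, 28.2 for Flt4, 13.3 for Pgf, 7.92 for Vegfc, 6.57 for Nrp2, 6.11 for Vegfb and 1.33 for Vegfa. In heterozygous libraries they were 144.4 CPM per kilobase for Kdr, 80.2 for Nrp1, 39.2 for Flt1, 21.2 for Plxnd1, 19.2 for Flt4, 13.6 for Vegfb, 8.85 for Vegfc, 5.70 for Nrp2, 4.05 for Pgf and 1.25 for Vegfa. Pgf and Vegfb thus took each other's place between the Flt4 level and the Vegfa level.

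The ranges of neighbours in this order mostly overlapped. In knockout libraries the ranges were apart for Nrp1 above Flt1, Plxnd1 above Flt4 and Vegfb above Vegfa. In heterozygous libraries they were apart for Pgf above Vegfa. Vegfa was thus the lowest of the 10 in mean level in both groups, at 1.33 and 1.25 CPM per kilobase. The place of Nrp1 depends on its exon length, which is 3597 bases in the basic set and 9785 bases over all annotated transcripts. With the longer sets for all genes, Nrp1 averaged 50.9 CPM per kilobase in knockout and 29.5 in heterozygous libraries, below Flt1 at 59.5 and 31.8.

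Kdr made up a smaller share of the receptor kinase transcripts in knockout libraries. Of the summed CPM per kilobase of Kdr, Flt1 and Flt4, Kdr took 58.8% ± 2.62 in knockout and 71.4% ± 1.53 in heterozygous libraries (SD, n = 4 each). Flt1 took 29.6% ± 3.58 in knockout and 19.2% ± 2.52 in heterozygous libraries. Among the 4 ligands, Pgf took 42.1% ± 13.9 in knockout and 14.6% ± 3.52 in heterozygous libraries. Vegfb took 23.3% ± 6.79 of the ligand sum in knockout and 48.3% ± 11.3 in heterozygous libraries. Vegfc was close to 30% in both groups, at 30.1% ± 8.33 in knockout and 32.3% ± 8.63 in heterozygous libraries, and Vegfa took 4.41% ± 2.06 in knockout and 4.66% ± 2.60 in heterozygous libraries. Shares within a library sum to a fixed total, so they do not move independently.

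Ratios of raw counts within a library do not depend on how libraries are scaled. The ratio of Flt1 to Kdr was 1.04, 0.777, 1.10 and 0.839 in knockout libraries 1 to 4, against 0.415, 0.461, 0.527 and 0.588 in heterozygous libraries 1 to 4. All knockout ratios were above all heterozygous ratios, although neither gene passed the test of its own level. The difference of the mean log2 ratio was 0.91, or 1.88-fold (exact two-sided permutation test over 70 arrangements, p = 0.0286, the lowest possible with 4 against 4 libraries, and adjusted p = 0.05 over the 7 ratios, which is not under the threshold). The ratio of Flt4 to Kdr was 0.216, 0.228, 0.192 and 0.199 in knockout libraries, against 0.149, 0.148, 0.142 and 0.120 in heterozygous libraries, a log2 difference of 0.58 without overlap. The ratio of Nrp1 to Kdr was 0.567, 0.642, 0.595 and 0.563 in knockout libraries, against 0.379, 0.344, 0.283 and 0.389 in heterozygous libraries, a log2 difference of 0.77 without overlap. In these 3 ratios Kdr is the shared denominator, so they are not independent of each other. Nrp1 was already without overlap by its own level. The share of other gene pairs whose ratios do not overlap was not computed.

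The ratio of Nrp2 to Nrp1 was 0.114, 0.176, 0.112 and 0.153 in knockout libraries, against 0.260, 0.209, 0.189 and 0.180 in heterozygous libraries. Knockout ratios were all lower, with a log2 difference of -0.60. This ratio and those of Flt4 and Nrp1 to Kdr had the same exact permutation p of 0.0286 and adjusted p of 0.05. Plxnd1 to Nrp1 overlapped between groups, with a log2 difference of 0.35 (exact permutation p = 0.0571, adjusted p = 0.08). Pgf to Vegfa (log2 difference 1.55, exact permutation p = 0.0857, adjusted p = 0.10) and Vegfb to Vegfa (log2 difference -1.01, exact permutation p = 0.20) also overlapped. Vegfa had 15 to 303 counts per library.

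**Figure D3:**
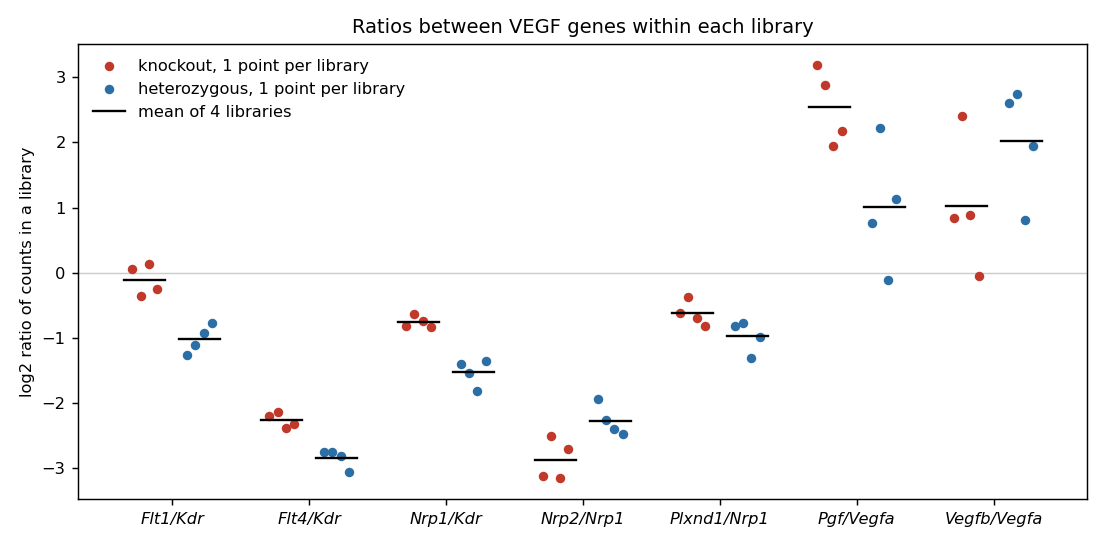
Log2 ratio of counts of gene pairs within each library (y axis), knockout left of heterozygous, with the mean of 4 as a line. Flt1, Flt4 and Nrp1 relative to Kdr are higher in every knockout library and Nrp2 relative to Nrp1 is lower, while the other 3 ratios overlap.

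Several genes known to be switched on by VEGF in endothelium were higher in knockout cells. Of 18 such genes, 15 were tested, 4 rose, 0 fell and 11 did not pass, where 5.53% of all tested genes rose. The median log2 fold change of the list was 1.19. Esm1, a secreted proteoglycan of tip cells, the cells that lead a sprout, had 224, 73.0, 165 and 158 CPM in knockout libraries 1 to 4, against 4.08, 16.4, 12.6 and 10.9 CPM in heterozygous libraries 1 to 4. It rose 14.1-fold (95% interval 7.29 to 27.3, edgeR adjusted p = 0.00107). Apln, a tip cell peptide that acts on neighbouring endothelium, rose 2.72-fold to 996 ± 248 CPM in knockouts, against 366 ± 107 CPM in heterozygotes (SD, n = 4 each; edgeR adjusted p = 0.00601). Spry4, a feedback inhibitor of receptor kinase signalling, rose 3.15-fold (edgeR adjusted p = 0.00448) and the homeobox gene Hlx 2.28-fold (edgeR adjusted p = 0.00890). All 4 were called whichever library was left out, but Apln and Hlx were not called without both heterozygous 2 and knockout 1. With the mean log2 CPM of neuron and radial glia markers in the fit, only Esm1 of these 4 was called. None of the 4 was called once pericyte, microglia and erythroid markers were added to that score. Of the 15 tested genes, 12 had a positive and 3 a negative log2 fold change, the lowest being Nr4a2 at -1.10 (edgeR adjusted p = 0.188). The early response gene Egr1 was at 231 CPM in knockout and 229 CPM in heterozygous libraries, with a log2 fold change of 0.01 (edgeR adjusted p = 0.992).

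Of 13 semaphorin and plexin partners of Plxnd1 and the neuropilins, 11 were tested, 1 rose and 10 did not pass, close to the 9.55% called among all tested genes. The median log2 fold change was -0.765, the value of Plxna3. This gene had an SE of 1.04, with 0 to 84 counts in knockout and 19 to 95 counts in heterozygous libraries. The gene that rose, Sema3f, encodes a ligand of Nrp2. It had 82.8, 22.0, 55.6 and 56.1 CPM in knockout libraries 1 to 4, against 9.31, 10.6, 8.88 and 13.3 CPM in heterozygous libraries 1 to 4. Sema3f rose 5.14-fold (edgeR adjusted p = 0.00384) and was called whichever library was left out. Sema3e, the ligand that binds Plxnd1 directly, had 0 to 1 counts in knockout and 0 to 10 counts in heterozygous libraries and was not tested.

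Among 33 genes of VEGF receptor signal transduction, 2 rose, 4 fell and 27 did not pass, set against 5.53% higher and 4.02% lower among all tested genes. The median log2 fold change was 0.09. Prkcb, a protein kinase C downstream of Kdr, fell 2.13-fold to 49.9 ± 9.06 CPM in knockouts, against 106 ± 15.6 CPM in heterozygotes (SD, n = 4 each; edgeR adjusted p = 0.00522). Hspb1, the small heat shock protein phosphorylated through p38 kinase, fell 2.75-fold (edgeR adjusted p = 0.00634), and the kinase gene Src fell 1.81-fold (edgeR adjusted p = 0.0170). Prkcb and Hspb1 were called whichever library was left out, while Src was lost without knockout 4 or heterozygous 3. Sh2d2a, the adaptor that binds phosphorylated Kdr, rose, with 33 to 66 counts in knockout and 1 to 7 counts in heterozygous libraries (edgeR adjusted p = 0.0281), but was called in 2 of the 8 fits. The other 2 called genes, named after their values were seen, were Shb, which fell 2.34-fold, and Mapkapk2, which rose by 0.58 on the log2 scale. Each was called in 2 of the 8 fits, and Mapkapk2 (edgeR adjusted p = 0.0492) was lost with relative log expression, upper quartile, total-count and endothelial-marker scaling. The phospholipase gene Plcg1 and the kinase genes Akt1 and Mapk3 did not pass, with log2 fold changes of -0.21, 0.17 and -0.33.

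Of 15 genes for receptor trafficking and dephosphorylation, Gipc1, which links Nrp1 to the endocytic motor, rose 1.47-fold (edgeR adjusted p = 0.0338) and Rab4a, a recycling GTPase, fell 1.58-fold (edgeR adjusted p = 0.0346). With each library left out in turn, the Gipc1 call was kept in 2 fits and the Rab4a call in 1, and the median log2 fold change of the list was -0.02. Heparan sulfate chains hold VEGF at the cell surface. Of 15 genes of their core proteins and enzymes, Ext1, a chain polymerase, rose 2.85-fold (edgeR adjusted p = 0.0182). The basement membrane proteoglycan gene Hspg2 rose 1.85-fold (edgeR adjusted p = 0.0244), and Sdc1, a syndecan, fell 2.30-fold (edgeR adjusted p = 0.0364). The list's median log2 fold change was 0.04, and on leaving out each library in turn the Ext1, Hspg2 and Sdc1 calls were kept in 6, 4 and 2 fits. Of 8 tested oxygen-sensing genes 1 rose, Egln3, a prolyl hydroxylase and a transcriptional target of hypoxia-inducible factors. Egln3 had 18, 17.5, 22.4 and 19.2 CPM in knockout libraries 1 to 4, against 2.94, 1.38, 3.80 and 4.77 CPM in heterozygous libraries 1 to 4, and rose 5.90-fold (edgeR adjusted p = 0.00333). The median of this list was 0.06. Over the 6 lists, 97 genes were tested, of which 11 rose and 6 fell, against 5.53% and 4.02% of all tested genes. The counts of the trafficking and oxygen-sensing lists were near these shares.

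**Figure D4:**
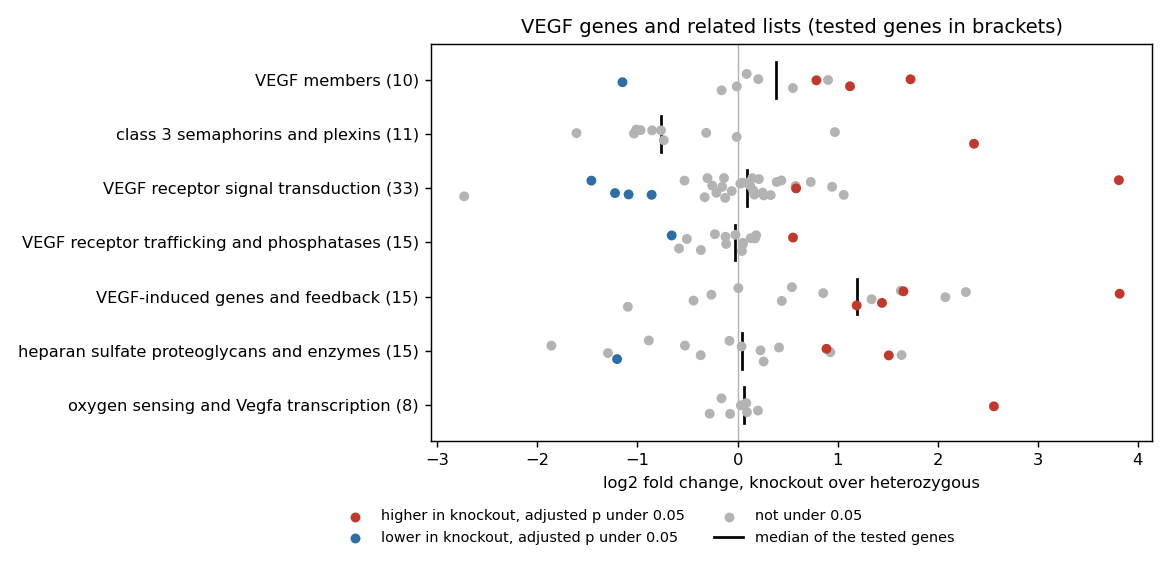
Log2 fold change, knockout over heterozygous (x axis), of the 10 VEGF genes and of the tested genes of 6 related lists, each point a gene and each line a list's median. The medians are 0.38 for the VEGF genes, 1.19 for VEGF-induced genes and -0.765 for semaphorins and plexins, and lie between -0.02 and 0.09 for the other lists.

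Pgf lies on the same chromosome as Flvcr2, with its end 569 kb from the start of Flvcr2 (chromosome 12, 85746539 to 85813586). Of 24 tested genes within 1 Mb of Flvcr2, Pgf and Jdp2 rose, Fos fell and 21 did not pass. This is near the 9.55% called among all tested genes, and the median log2 fold change was 0.33. Jdp2, a partner and inhibitor of the AP-1 factors, rose 2.93-fold (edgeR adjusted p = 0.00841) and was called whichever library was left out. Fos, an AP-1 subunit, fell 2.87-fold (edgeR adjusted p = 0.0327) but was called in 1 of the 8 fits. The tested genes next to Pgf on either side, Dlst, Rps6kl1, Eif2b2 and Mlh3, did not pass, with log2 fold changes of 0.34, -1.11, -0.05 and 0.51. Whether the nearness of Flvcr2 has a part in the Pgf result was not tested.

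**Figure D5:**
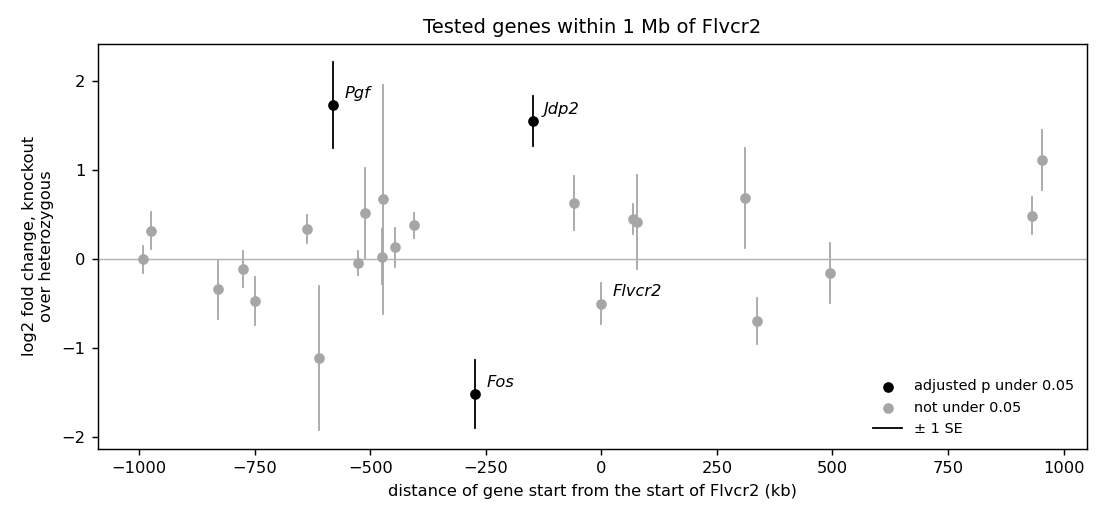
Log2 fold change, knockout over heterozygous, with 1 SE (y axis), of tested genes within 1 Mb of Flvcr2 by distance of their start from the start of Flvcr2 in kilobases (x axis). Pgf and Jdp2 (higher) and Fos (lower) lie on the same side of Flvcr2, with genes that did not pass between them.

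The genes whose profile over the 8 libraries was most like that of a called VEGF gene were found by the root mean square distance of log2 CPM, each gene centred on its own mean, among genes of at least 20 CPM. Genes with Gm or Rik names were left out. The distance covers both genotypes, so a near profile also shares the genotype difference. For Plxnd1 the nearest were the chemokine gene Cx3cl1 (distance 0.113), Bcl6b (0.127) and Tmem39a (0.135), against a median of 0.629 over the genes compared. For Nrp1 they were the glycolytic enzyme gene Pfkp (0.0634), the integrin gene Itgb1 (0.0892) and Hspg2 (0.0910), against a median of 0.521. For Vegfb they were B4galt2 (0.179), the fatty acid synthase gene Fasn (0.183) and Nipsnap1 (0.237), against a median of 0.735. For Pgf they were Eml2 (0.346), Ccng1 (0.361) and Sesn2 (0.378), against a median of 1.02, so no gene followed Pgf as closely as the others were followed.

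Transcripts of other cell types differed with genotype in these libraries. The mean log2 CPM of neuron, radial glia, pericyte, microglia and erythroid markers ran from 2.16 to 3.86 in knockout and from 4.23 to 5.30 in heterozygous libraries, without overlap. That of neuron and radial glia markers alone ran from 1.52 to 3.86 in knockout and from 3.64 to 5.72 in heterozygous libraries, with overlap. With the wider score, which includes pericyte, microglia and erythroid markers, 0 of the 10 genes were called in edgeR (1 at an unadjusted p under 0.05). With the neuron and radial glia markers alone 0 were called (4 at an unadjusted p under 0.05), whereas DESeq2 without a covariate called 5. The log2 fold change of Plxnd1 was then 0.83 ± 0.32 (SE, edgeR adjusted p = 0.411) with the wider score and 0.92 ± 0.24 (edgeR adjusted p = 0.113) with the neural score. For Nrp1 it was 0.55 ± 0.37 (edgeR adjusted p = 0.684) and 0.72 ± 0.29 (edgeR adjusted p = 0.297), and for Pgf 1.19 ± 0.94 (edgeR adjusted p = 0.742) and 1.68 ± 0.71 (edgeR adjusted p = 0.324). For Vegfb it was -0.89 ± 0.62 (edgeR adjusted p = 0.7085) and -0.89 ± 0.44 (edgeR adjusted p = 0.398). Since the wider score does not overlap between genotypes, genotype and the amount of other cells' transcripts cannot be told apart by this fit.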

How the data were processed

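Per the labels, RNA of sorted cells was made into poly(A)-selected libraries and read as single-end 50-nucleotide reads, and the labels state over 40 M reads for each sample. The authors deposited raw counts per gene symbol, 1 column per library. Per the submitters' processing notes, TopHat2 0.7, Cufflinks 2.2.1 and the build mm10 were used. The counting program and strand setting were not given in the sources used here. No exon of the 10 genes overlaps another gene in GENCODE M21 except an 80-base microRNA in Nrp1.

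Genes with enough counts (filterByExpr of edgeR 4.0.16 in R 4.3.3, minimum count 10, minimum total 15) were scaled by TMM. The 13540 genes were tested by quasi-likelihood with a robust dispersion estimate and genotype as the only term, with Benjamini-Hochberg adjustment and a threshold of 0.05. The standard error is the size of the log2 fold change over the square root of F. Ratios had 0.5 counts added. The genes, lists and tests were chosen with earlier results of these data known. Named genes were the 10, up to 4 called genes per list by smallest p, called genes within 1 Mb of Flvcr2, the 2 tested genes on each side of Pgf and the 3 nearest profiles of each called gene. No 2 libraries of a genotype were alike within sampling noise. The fit was tested on a simulated data set of 13197 tested genes, with 100 genes changed at each fold size. There it recovered 36% of 2-fold and 70% of 4-fold changes. A smaller part of the genes was changed there than was called in the data, so recovery in the data may differ. Alternatives were other scalings, filters, DESeq2 1.42.0, limma 3.58.1 voom, covariates, a replicate block and left-out libraries.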

Additional observations from a re-analysis of the deposited data

How the results depend on the processing

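No VEGF gene changed direction while called. The 4 calls among the 10 became 2 with total-count scaling, 2 with endothelial-marker scaling, 1 (Plxnd1) with the replicate number as a block, 0 with either marker score and 1 without both heterozygous 2 and knockout 1; leaving out 1 library gave 1 to 4. Of all genes, 1293 were called, against 701 with endothelial-marker scaling, 2221 in DESeq2, 121 with the neural score, 12 with the wider score (1364 at an unadjusted p under 0.05), 300 without heterozygous 2 and knockout 1, 842 without heterozygous 1 and knockout 2, and 579 to 1347 without 1 library. The 17 calls in the lists became 11 with the block, 4 with the neural score, 0 with the wider score (edgeR; 20 at an unadjusted p under 0.05, and DESeq2 without a covariate called 25), 4 without heterozygous 2 and knockout 1, and 9 to 16 without 1 library. The causes were not tested. Of the called genes 57.9% were higher in knockouts, but 42.6% with total-count scaling and 45.8% with endothelial-marker scaling, which moved the median log2 fold change by -0.12 and -0.15. Same-numbered libraries correlated at 0.0584, 0.211, -0.0459 and 0.0212, and not every library correlated best with its own number, so the numbers were not taken to pair embryos. Ratios kept their direction without any 1 library and with 0 or 1 count added. Vegfa had 15 to 303 counts and a log2 fold change with an SE of 0.59; the part of depth in this was not tested.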
